A study of Homo sapiens with 27 samples.

Results

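The genes that encode folliculin (FLCN), its partners FNIP1 and FNIP2, and 3 of the Rag GTPases, RRAGA, RRAGC and RRAGD, were followed across all groups of a melanoma cell experiment. The 6 genes were chosen by symbol, as genes of this feedback loop, and all 6 were among the 13523 genes of the deposited expression table and among the 13052 that passed a filter on low values. RNA 3′ ends were sequenced from 501mel, an established human melanoma cell line that is high in MITF, the master transcription factor of the melanocyte lineage. Its relatives TFE3 and TFEB were knocked out by CRISPR-Cas9, singly or together. The design asks how lack of amino acids, inhibition of mTOR and loss of TFE3 and TFEB bear on transcription. The 9 groups were WT cells left untreated, WT cells kept for 12 h in HBSS (a glucose-containing salt solution with no amino acids), WT cells kept for 12 h in 250 nM Torin1 (an inhibitor of the kinase mTOR, here Torin), and TFE3 KO, TFEB KO and TFE3/TFEB double KO (DKO) cells, each kept for 12 h as a control or in 250 nM Torin. All cells were maintained in medium with serum, given as DMEM in the labels and as RPMI in the methods, and MITF was not targeted in any group. The knockout lines are single clones per the methods, so a difference between genotypes and a difference between clones cannot be told apart. The labels give 12 h for the knockout controls and no time for untreated WT. Any difference in how these controls were handled cannot be told apart from genotype either. This holds for knockouts against WT without drug and for Torin responses of knockouts against that of WT. HBSS was applied to WT cells only. It took the place of the medium, so lack of amino acids and lack of other parts of the medium cannot be told apart.

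The Rag GTPases sit on the lysosome as pairs, in which RagA or RagB joins RagC or RagD, and they bring the kinase complex mTORC1 to the lysosomal surface when amino acids are present. FLCN, held in a complex with FNIP1 or FNIP2, switches RagC and RagD to the GDP-bound form, and in that form they bind TFEB and TFE3 and present them to mTORC1, which keeps these factors out of the nucleus. The isoform of MITF made by melanocytes and melanoma cells lacks the stretch that binds the Rag GTPases and is mostly nuclear. The genes of the pathway are themselves known targets of this family of transcription factors, which is why they are described as a feedback loop. RagC and RagD are the products of RRAGC and RRAGD, and RagA that of RRAGA.

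One column of values was deposited under 2 names, as replicate 3 of WT HBSS and as replicate 1 of WT Torin. It was left out of both groups, so WT HBSS and WT Torin had n = 2 libraries and the other groups n = 3, 25 libraries in all. The libraries held 4147050 to 6526392 reads, and the 6 genes were covered by 69 to 1576 reads per library, with FNIP1 the lowest (69 to 201) and FLCN next (88 to 270). Values are normalised read counts on a CPM scale, of which 3 reads are worth 0.460 to 0.711. All 10 melanocytic markers checked were in the table, against 2 of 6 fibroblast markers (COL1A1 and LUM, together at most 6.62), 1 of 4 keratinocyte markers (KRT10, 48.1 to 117), 1 of 4 immune markers (CD68, 29.5 to 74.2) and 0 of 3 endothelial markers. The targeted genes were lower in the knockouts: TFE3 lay at 23.8 to 24.3 in untreated WT and at 5.06 to 7.59 in TFE3 KO and DKO without drug, and TFEB at 2.34 to 3.96 in untreated WT and 0.75 to 1.66 in TFEB KO without drug. TFEB was at 0.177 to 1.56 in TFE3 KO as well, so its mRNA did not set the 2 single knockouts apart. Under Torin TFEB lay at 4.27 and 5.63 in WT and at 3.45, 0.628 and 0.611 in TFEB KO, so the library labelled TFEB KO Torin replicate 1 (20 reads of TFEB) was within the untreated WT range. In TFE3 KO under Torin TFE3 lay at 9.13 to 14.0, against 17.5 and 20.4 in WT. In these bulk libraries, fewer cells of a kind and less RNA per cell cannot be told apart, and p-values measure the spread between libraries, which may be technical.

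The 6 genes lie on 6 chromosomes. In hg38 with the GENCODE 44 annotation, FLCN is at chr17:17212212-17237188 (minus strand, 14 exons), FNIP1 at chr5:131641714-131797017 (minus, 18 exons), FNIP2 at chr4:158769026-158908050 (plus, 17 exons), RRAGA at chr9:19049427-19051025 (plus, 1 exon), RRAGC at chr1:38838198-38859772 (minus, 7 exons) and RRAGD at chr6:89364616-89412273 (minus, 7 exons). Since reads come from 3′ ends, the last exon carries the signal. The last exon of RRAGC shares 372 of its 1507 bases with a long non-coding RNA on the same strand, so reads in that stretch cannot be assigned to RRAGC alone. FLCN overlaps MPRIP on the opposite strand, but none of the last exon's 1645 bases lies in an MPRIP exon.

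Promoter sequences show whether letters bound by these transcription factors stand near the gene starts. MITF, TFEB and TFE3 bind the palindrome CACGTG, in the longer form TCACGTGA at many lysosomal genes, and MITF also binds TCACATGA. RefSeq promoters (GRCh38.p14, 250 bases before to 50 after a start) were at hand for 4 of the 6 genes, FLCN, FNIP1, FNIP2 with 2 starts, and RRAGC. They were searched on both strands for CACGTG (held by 7.23% of 34943 promoters), TCACGTGA, which contains it (0.979%), and TCACATGA (1.0%). TCATATGA, in which the central bases form another palindrome (0.252% of promoters), was added along with TCACATGA after the sequences had been seen. The shares of these 2 motifs therefore do not show how unusual their matches are here. The study's text does not name TCATATGA as a site of these factors. The promoters with a match are shown from 250 bases before to 20 after the start, 5′ to 3′ on the gene's strand, with matches in capitals, at chr5:131796998-131797267 for FNIP1, chr4:158768776-158769045 and chr4:158805589-158805858 for the first and second FNIP2 starts, and chr1:38859753-38860022 for RRAGC.
FNIP1: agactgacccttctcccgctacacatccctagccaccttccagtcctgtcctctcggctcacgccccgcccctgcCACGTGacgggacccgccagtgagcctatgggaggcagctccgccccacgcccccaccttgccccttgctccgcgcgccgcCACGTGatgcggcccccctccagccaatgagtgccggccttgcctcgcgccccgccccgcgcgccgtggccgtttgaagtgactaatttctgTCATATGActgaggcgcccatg
FNIP2 first start: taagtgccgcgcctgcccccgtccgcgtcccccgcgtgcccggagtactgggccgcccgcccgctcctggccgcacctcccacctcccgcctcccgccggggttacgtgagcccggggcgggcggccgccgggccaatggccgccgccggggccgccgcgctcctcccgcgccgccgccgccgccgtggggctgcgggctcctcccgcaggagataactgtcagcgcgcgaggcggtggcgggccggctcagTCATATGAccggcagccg
FNIP2 second start: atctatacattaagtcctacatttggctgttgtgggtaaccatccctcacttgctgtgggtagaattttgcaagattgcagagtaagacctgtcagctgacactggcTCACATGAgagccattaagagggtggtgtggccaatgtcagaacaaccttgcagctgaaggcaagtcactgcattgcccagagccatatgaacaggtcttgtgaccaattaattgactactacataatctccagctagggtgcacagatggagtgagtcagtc
RRAGC: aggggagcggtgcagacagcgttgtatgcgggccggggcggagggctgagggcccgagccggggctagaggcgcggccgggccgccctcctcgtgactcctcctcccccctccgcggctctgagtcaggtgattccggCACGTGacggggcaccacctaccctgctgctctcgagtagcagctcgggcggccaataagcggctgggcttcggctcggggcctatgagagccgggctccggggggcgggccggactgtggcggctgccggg
FNIP1 holds CACGTG with its first letter 175 and 94 bases before the start, and RRAGC holds it 112 bases before. TCATATGA begins 2 bases before the FNIP1 start and 2 bases after the first FNIP2 start, and TCACATGA lies 143 bases before the second FNIP2 start. The FLCN promoter held none of the 4 motifs, and none of the promoters held TCACGTGA. A match is a description of letters and was not tested as a binding site.

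**Figure D1:**
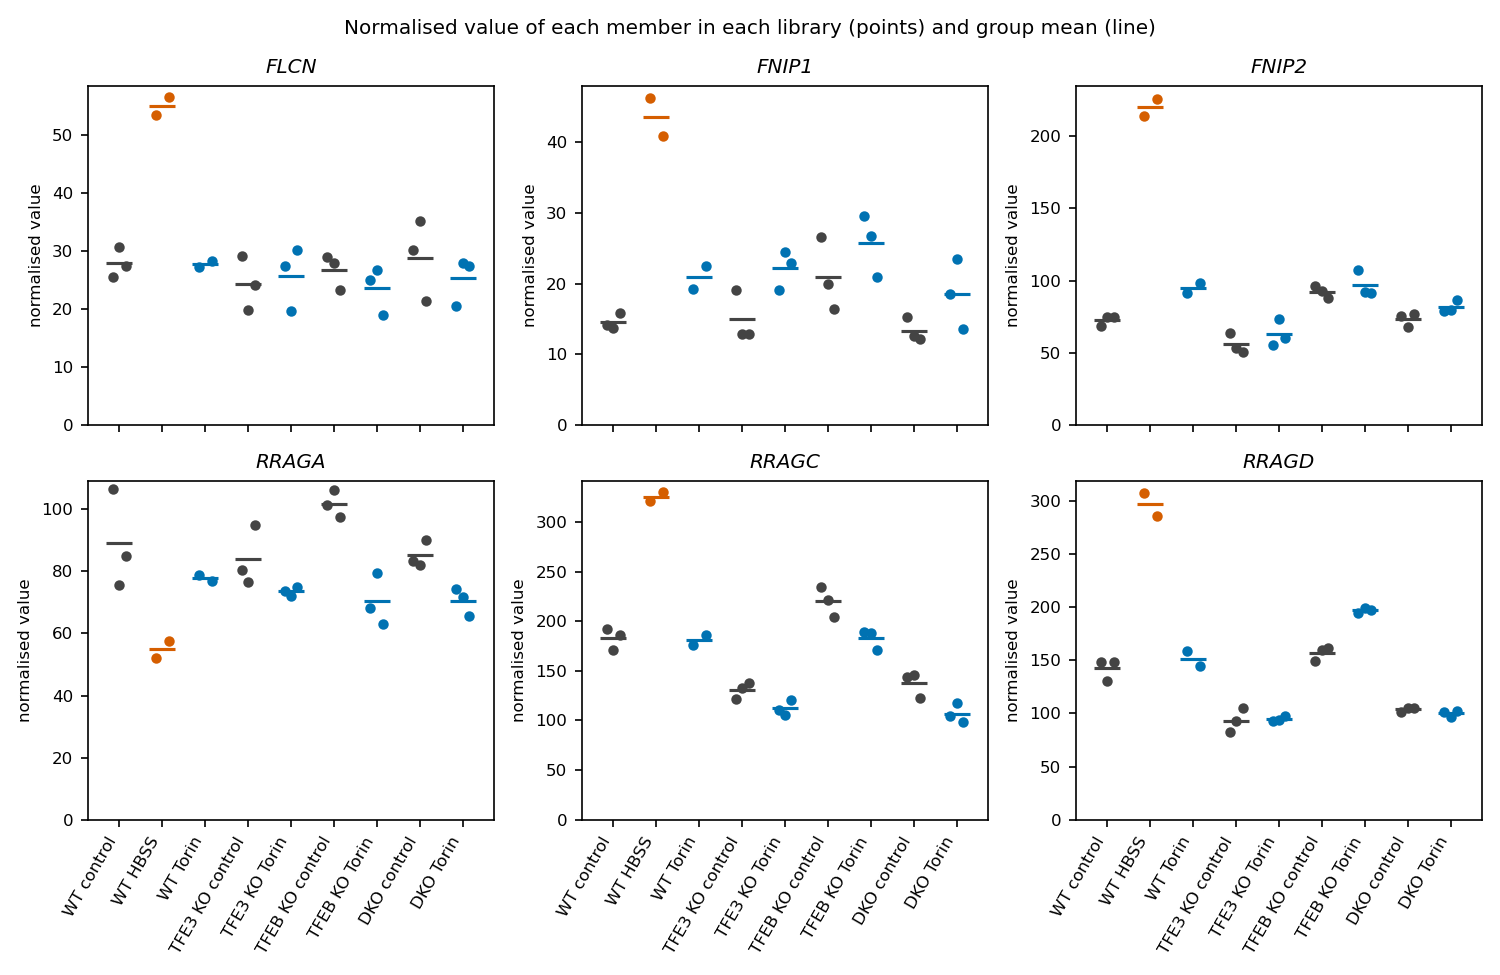
Normalised value of each gene (linear y axis from 0) in each of the 25 libraries, with 1 point per library, a line at the group mean, and grey for untreated or control, orange for HBSS and blue for Torin. In FLCN, FNIP1, FNIP2, RRAGC and RRAGD both HBSS points lie above every other library, and in RRAGA both lie below every other library.

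HBSS raised the expression of all 3 genes of the folliculin complex in WT cells. FNIP2 read 68.7, 74.6 and 74.5 in the untreated libraries and 214 and 226 in HBSS. FNIP1 read 14.1, 13.7 and 15.8 untreated and 46.3 and 40.8 in HBSS. FLCN read 25.5, 30.7 and 27.3 untreated and 53.4 and 56.5 in HBSS. In each of the 3 genes both HBSS libraries were above all untreated ones. The log2 fold change was 1.59 ± 0.11 (SE) for FNIP2, a 3.0-fold rise (limma, adjusted p = 5.56e-17). For FNIP1 it was 1.52 ± 0.20, or 2.87-fold (limma, adjusted p = 7.21e-09). For FLCN, the subunit that carries the activity towards RagC and RagD, it was 0.96 ± 0.18, or 1.95-fold (limma, adjusted p = 2.44e-05).

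The Rag genes split in direction. RRAGD, whose product pairs with RagA or RagB, read 149, 131 and 148 untreated and 308 and 286 in HBSS. RRAGC, the gene of the alternative partner, read 193, 171 and 186 untreated and 321 and 329.8 in HBSS. RRAGA read 106, 75.6 and 85.1 untreated and 52.2 and 57.6 in HBSS. The RRAGD and RRAGC values in HBSS were all above the untreated ones, and those of RRAGA were all below. RRAGD rose by 1.05 ± 0.09 on the log2 scale, 2.08-fold (limma, adjusted p = 9.23e-14). RRAGC rose by 0.83 ± 0.09, 1.77-fold (limma, adjusted p = 2.22e-10). RRAGA fell by 0.68 with an SE of 0.11, to 0.626 of its untreated level (limma, adjusted p = 2.44e-06).

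In all, 6 of 6 genes passed an adjusted p of 0.05 in HBSS, 5 up and 1 down, where 48.3% of all 13052 genes passed. Of these, FNIP1, FNIP2 and RRAGD also changed at least 2-fold, which 13.1% of all genes did. The median log2 fold change of the 6 genes was 1.01 and that of all genes -0.03. All 6 calls held when any 1 of the 5 libraries compared was left out. TFEB and MITF moved with these genes: TFEB rose to 30.4 and 28.0 in HBSS and MITF from 719 to 788 in untreated cells to 1392 and 1454, while TFE3 lay at 25.1 and 23.7. Their part in the changes of the 6 genes was not tested.

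The rest of the amino acid sensing pathway moved in both directions. Of 35 further genes listed by complex, 14 passed in HBSS, 9 up and 5 down, and their median log2 fold change was 0.02. The remaining Rag gene, RRAGB, rose by 0.84 ± 0.27 (limma, adjusted p = 0.00942), opposite to RRAGA, whose product its own can replace in the pair, and read 5.44 and 7.13 in HBSS against 2.18 to 4.68 untreated. In the Ragulator group, which includes the scaffold that anchors the Rags to the lysosome, 0 of 6 genes rose and 3 fell, LAMTOR1 (-0.68), LAMTOR2 (-0.47) and the arginine-sensing transporter gene SLC38A9 (-0.91), which had only 2 and 8 reads in HBSS, the former under the floor of 3 reads, and 9 to 21 untreated. In GATOR1, which switches RagA and RagB off, NPRL2 fell (-0.81), and in GATOR2 the coat protein gene SEC13 fell (-0.55). The 4 genes of KICSTOR, which holds GATOR1 at the lysosome, had a median log2 fold change of -0.07. Of the amino acid sensor genes, 3 of 7 rose, with the leucine sensor SESN2 at 3.47 ± 0.20 (limma, adjusted p = 1.65e-19), SESN3 at 0.60 and the leucyl-tRNA synthetase gene LARS at 0.62. The 3 genes of the TSC complex, the brake on the mTORC1 activator RHEB, rose, TSC1 by 1.02, TBC1D7 by 0.82 and TSC2 by 0.60. Of the mTORC1 subunits, DEPTOR rose by 1.11 and AKT1S1 by 0.40, both genes of inhibitory subunits, although DEPTOR was covered by 2 to 5 reads in the untreated libraries and by 4 and 22 in HBSS.

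**Figure D2:**
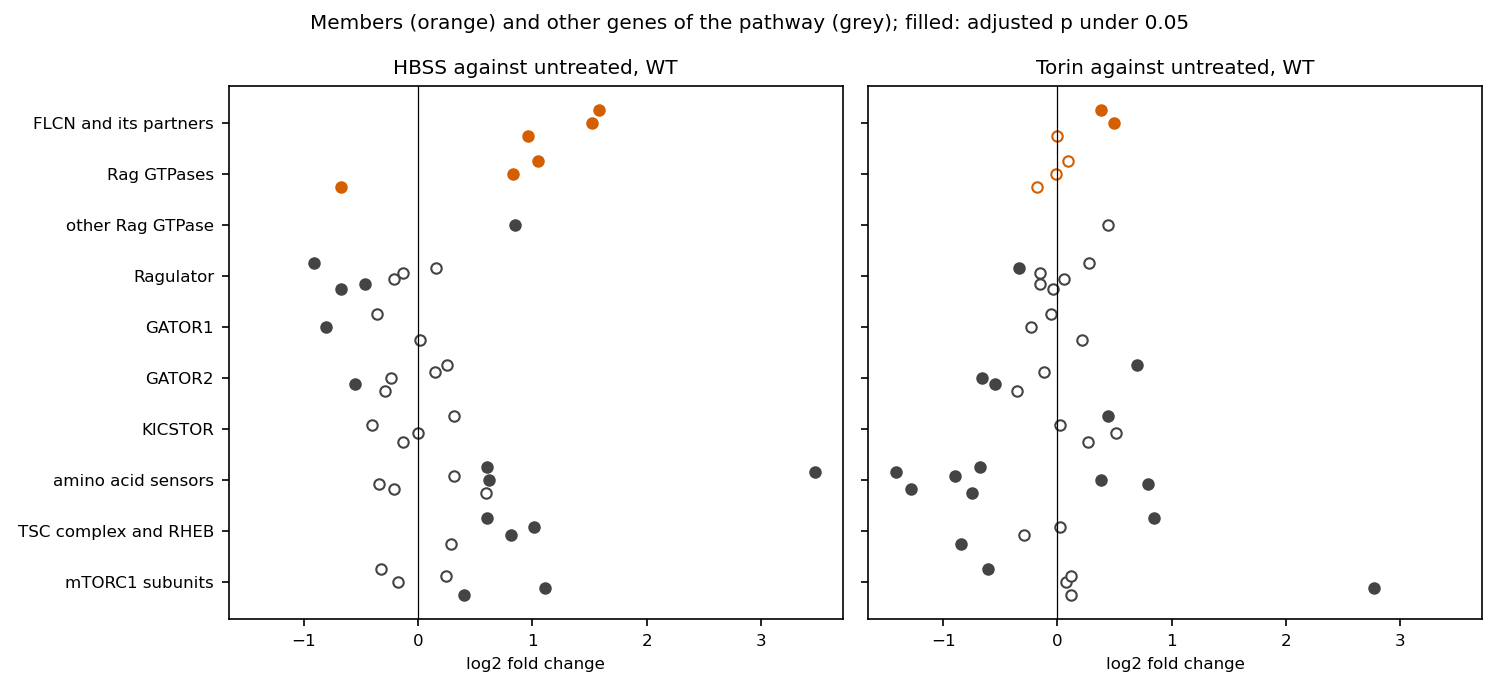
Log2 fold change (x axis) of the 6 genes (orange) and of 35 other genes of the pathway (grey) by complex, for HBSS (left) and Torin (right) against untreated WT cells, with filled points for an adjusted p under 0.05 in limma. In HBSS 5 orange points lie to the right of 0 and RRAGA to the left, and in Torin only the points of FNIP1 and FNIP2 are filled among the 6.

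Torin changed fewer of the genes, and by less. In WT cells FNIP2 read 91.6 and 98.6 in Torin, both above the untreated libraries, a log2 fold change of 0.38 ± 0.11 (limma, adjusted p = 0.00342). FNIP1 read 19.2 and 22.5 in Torin, also above all untreated libraries, a change of 0.49 ± 0.20 (limma, adjusted p = 0.0369). FLCN lay at 27.2 and 28.2 in Torin, within the untreated range, and its 95% interval of change ran from -0.37 to 0.37. RRAGC read 176 and 187 with an interval from -0.20 to 0.17. RRAGD read 159 and 144 with an interval from -0.09 to 0.27. RRAGA read 78.8 and 77.0 with an interval from -0.41 to 0.05. Thus 2 of 6 genes rose and 4 did not pass, where 43.9% of all genes passed. Each of these calls rested on few libraries: FNIP1 no longer passed without untreated replicate 1 (adjusted p = 0.0738) or 2 (0.0912) or without Torin replicate 2 (0.0563) or 3 (0.245), and FNIP2 without Torin replicate 3 (0.0604), all in limma. With the column found under 2 names counted as WT Torin, RRAGD rose by 0.46 and passed (limma, adjusted p = 0.0371), FNIP1 was at 0.95 and FNIP2 at 0.83, and FLCN (0.43) and RRAGC (0.30) did not pass. That column held 326 for RRAGD, where the other Torin libraries held 159 and 144 and the HBSS libraries 308 and 286.

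Of the 35 further pathway genes, 16 passed with Torin in WT cells, 6 up and 10 down. DEPTOR rose by 2.77 ± 0.35 (limma, adjusted p = 6.31e-09), the widest change in the list, from 0.390 to 0.822 in the untreated libraries to 7.73 and 11.4 in Torin. SESN2 fell by 1.42 on the log2 scale with an SE of 0.20, against its rise in HBSS. SESN1 (-0.90), SESN3 (-0.68), RHEB (-0.85) and GATSL2 (-1.28), a relative of the arginine sensor gene GATSL3, fell as well. TSC2 rose by 0.84, as it did in HBSS, and TSC1 changed by 0.03 without passing. RRAGB changed by 0.44 ± 0.27 without passing (limma, adjusted p = 0.195).

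A direct comparison of both treatments showed that HBSS and Torin differed in all 6 genes. HBSS exceeded Torin by 1.20 ± 0.12 on the log2 scale for FNIP2 (limma, adjusted p = 1.14e-11). It exceeded Torin by 1.03 ± 0.21 for FNIP1 and by 0.96 ± 0.20 for FLCN. RRAGD was higher in HBSS by 0.96 ± 0.10 and RRAGC by 0.84 ± 0.10, and RRAGA was lower, with a log2 difference of -0.50 ± 0.12 (limma, adjusted p = 0.000868). In this comparison 49.2% of all genes passed. TFEB was 2.35 higher in HBSS than in Torin on the same scale, and MITF 0.95 higher. Counting the identical column as WT Torin ended the FLCN call (limma, adjusted p = 0.17) and the FNIP1 call (0.164), and lowered the differences of FNIP2 to 0.76, RRAGD to 0.60 and RRAGC to 0.52, which still passed.

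**Figure D3:**
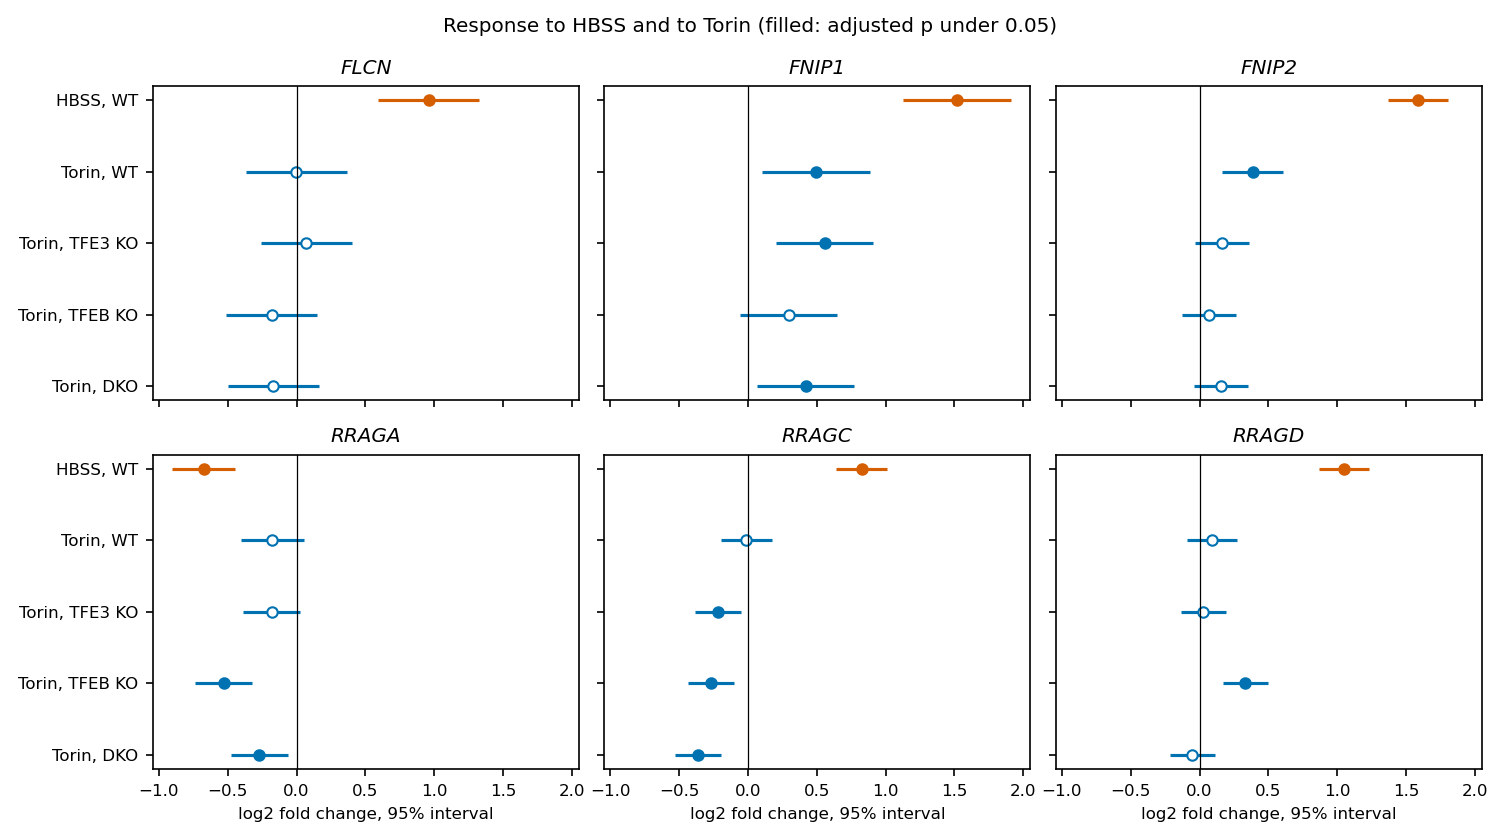
Log2 fold change with its 95% interval (x axis) of each gene in HBSS (orange) and in Torin (blue) against the untreated or control libraries of the same genotype, with filled points for an adjusted p under 0.05 in limma. HBSS points lie from -0.68 for RRAGA to 1.59 for FNIP2, while Torin points lie between -0.53 and 0.56.

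The numbers of the 6 genes that passed with Torin in TFE3 KO, TFEB KO and DKO cells, 2, 3 and 3, are 33.3%, 50% and 50% of them, to be read against the 51.4%, 38.3% and 51.6% of all genes that passed. In TFE3 KO cells FNIP1 read 19.1, 12.9 and 12.8 in the controls and 19.1, 24.5 and 22.9 in Torin. The lowest Torin library and the highest control library were about level, and the change was 0.56 ± 0.17 (limma, adjusted p = 0.00664). RRAGC read 122, 132 and 138 in the controls and 111, 106 and 120.5 in Torin, without overlap. It fell by 0.22 on the log2 scale with an SE of 0.08 (limma, adjusted p = 0.0246). The call was lost with edgeR (adjusted p = 0.0647) and DESeq2 (0.0557), and in limma without control replicate 2 (0.0665) or 3 (0.113) or Torin replicate 1 (0.0596) or 2 (0.116). Of all genes, 51.4% passed in TFE3 KO cells. FNIP2 changed by 0.17 ± 0.10 without passing.

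In TFEB KO cells 3 Rag genes changed, in different directions. RRAGD read 149, 159 and 162 in the controls and 195, 199.6 and 198 in Torin, a rise of 0.33 ± 0.08 (limma, adjusted p = 0.000902). RRAGA read 101, 106 and 97.5 in the controls and 68.3, 79.6 and 63.1 in Torin. It fell by 0.53 on the log2 scale with an SE of 0.10 (limma, adjusted p = 3.87e-05). The libraries of both genes did not overlap between control and Torin, and neither did those of RRAGC, which read 234, 222 and 204 in the controls and 189, 188 and 171 in Torin. RRAGC fell by 0.27 with an SE of 0.08 (limma, adjusted p = 0.00893), and this was lost without control replicate 1 (0.0588) or Torin replicate 3 (0.0604). Without the library labelled TFEB KO Torin replicate 1, RRAGD (0.34), RRAGA (-0.51) and RRAGC (-0.29) still passed. In TFEB KO cells 38.3% of all genes passed, and FLCN, FNIP1 and FNIP2 did not pass.

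In DKO cells RRAGC read 144, 146 and 123 in the controls and 104, 117 and 98.0 in Torin, without overlap, and fell by 0.36 with an SE of 0.08 (limma, adjusted p = 0.000252). RRAGA read 83.5, 82.1 and 90.0 in the controls and 74.3, 71.9 and 65.5 in Torin. It fell by 0.27 with an SE of 0.10 (limma, adjusted p = 0.0241), a call that edgeR (0.0554) and DESeq2 (0.0669) did not make and that limma lost without control replicate 3 (0.0899) or Torin replicate 3 (0.114). FNIP1 read 15.3, 12.6 and 12.2 in the controls and 18.5, 23.5 and 13.6 in Torin, with overlap. Its rise of 0.42 ± 0.17 (limma, adjusted p = 0.0414) was lost without control replicate 2 (0.109) or 3 (0.121) or Torin replicate 1 (0.0901) or 2 (0.312). Here 51.6% of all genes passed.

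Whether a gene passed in one genotype and not in another does not show that the responses differed, so the difference of responses was tested. No gene of the 6 passed in limma for TFE3 KO minus WT, for TFEB KO minus WT or for DKO minus WT, where 1.06%, 1.16% and 0.506% of all genes passed. At an unadjusted p of 0.05 these counts were 0, 3 and 1, and edgeR and DESeq2 also called 0 in each. The lowest unadjusted p was that of RRAGC in DKO, where the Torin response was 0.35 lower than in WT on the log2 scale (95% interval from -0.60 to -0.10, limma adjusted p = 0.25). For FNIP2 the response differed from that of WT by -0.22 in TFE3 KO (95% interval from -0.51 to 0.08), by -0.32 in TFEB KO (-0.61 to -0.02) and by -0.23 in DKO (-0.53 to 0.06). These 3 differences share the WT libraries.

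The responses of the knockouts were also compared with each other, in contrasts chosen after the values had been seen. The RRAGD response was 0.39 ± 0.11 higher in TFEB KO than in DKO (limma, adjusted p = 0.0343), and 5.62% of all genes passed. This call was lost when any 1 of 9 of the 12 libraries was left out, among them TFEB KO control replicate 1 (0.0922), DKO Torin replicate 2 (0.0832) and the library labelled TFEB KO Torin replicate 1 (0.0546). Against TFE3 KO the RRAGD response of TFEB KO was 0.30 ± 0.11 higher and did not pass (limma, adjusted p = 0.096), and 7.68% of all genes passed. In limma 0 of the 6 genes passed in that contrast, 2 had an unadjusted p under 0.05, edgeR called 0 and DESeq2 called 1, which was RRAGD (adjusted p = 0.0445).

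RRAGC and RRAGD were lower in TFE3 KO and in DKO cells than in WT. Without drug, RRAGD read 82.7, 92.6 and 105 in TFE3 KO, all below the WT libraries at 131 to 149. The log2 fold change was -0.61 ± 0.08, or 0.655 of the WT level (limma, adjusted p = 1.56e-07). RRAGC read 122, 132 and 138 in TFE3 KO against 171 to 193 in WT, again without overlap. Its change was -0.48 ± 0.08, or 0.715 of the WT level (limma, adjusted p = 3.08e-05). FNIP2 read 63.6, 53.1 and 50.5 against 68.7 to 74.6 in WT, a change of -0.38 ± 0.10 (limma, adjusted p = 0.00637) that was lost without TFE3 KO replicate 3 (0.0669). FLCN, FNIP1 and RRAGA did not pass, with 95% intervals from -0.53 to 0.13, from -0.34 to 0.37 and from -0.28 to 0.13. In TFE3 KO 3 of 6 genes fell, where 9.41% of all genes passed in either direction. Of the 35 further pathway genes 3 passed, a share of 8.57% that is near that of all genes: SESN2 (-1.09) down, and TSC2 (0.50) and the KICSTOR gene C12orf66 (0.79, at 10 to 23 reads in untreated WT) up.

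In DKO cells without drug RRAGD read 101, 105 and 105, below every WT library, a change of -0.45 ± 0.08 (limma, adjusted p = 5.38e-05). RRAGC read 144, 146 and 123, also below every WT library, a change of -0.41 ± 0.08 (limma, adjusted p = 0.00029). FNIP2, which was lower in TFE3 KO, read 75.1, 68.0 and 77.0 in DKO and changed by 0.01 ± 0.10. The 2 genes that fell in DKO compare with 13.1% of all genes. MITF, which was at 532 to 596 in DKO against 719 to 788 in WT, moved with them. In TFE3 KO without drug MITF changed by -0.16 ± 0.06 and did not pass (limma, adjusted p = 0.0986). Under Torin it was 0.22 ± 0.07 higher in TFE3 KO than in WT (limma, adjusted p = 0.027). The part of MITF was not tested.

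In TFEB KO cells FNIP2 and RRAGC were higher than in WT. FNIP2 read 95.9, 92.4 and 88.2 in TFEB KO without drug, all above WT, a change of 0.34 ± 0.10 (limma, adjusted p = 0.0134). RRAGC read 234, 222 and 204, also all above WT, a change of 0.26 ± 0.08 (limma, adjusted p = 0.0258). FNIP1 read 26.6, 19.9 and 16.4 and lay above all WT libraries, yet its change of 0.48 ± 0.17 did not pass in limma (adjusted p = 0.0574). It passed in edgeR (0.52, adjusted p = 0.0474) and in limma without TFEB KO replicate 3 (0.63, adjusted p = 0.0201). RRAGD changed by 0.14 ± 0.08 and RRAGA by 0.20 ± 0.10, and neither passed. RRAGA passed without WT replicate 1 (0.34, limma adjusted p = 0.0299). Of all genes 14.6% passed. The FNIP2 call was lost without TFEB KO replicate 1 (0.0602) or WT replicate 1 (0.0636), and the RRAGC call without TFEB KO replicate 1 (0.133) or 2 (0.0712) or WT replicate 2 (0.127) or 3 (0.0507).

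**Figure D4:**
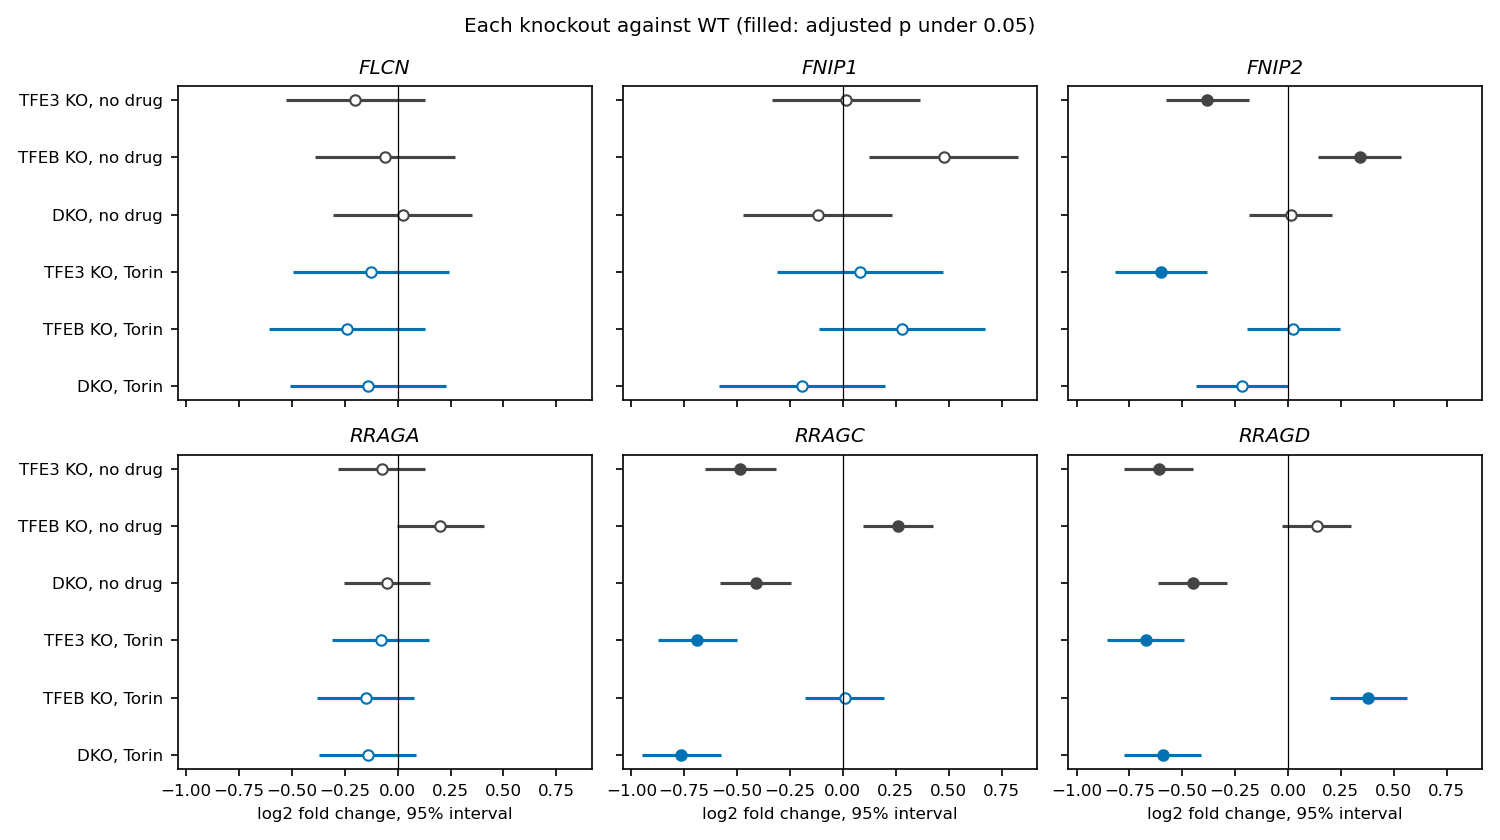
Log2 fold change with its 95% interval (x axis) of each gene in TFE3 KO, TFEB KO and DKO against WT, without drug (grey) and under Torin (blue), with filled points for an adjusted p under 0.05 in limma. The RRAGC and RRAGD points of TFE3 KO and DKO lie between -0.76 and -0.41 in both conditions, and the FLCN intervals all include 0.

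Under Torin, RRAGC and RRAGD were again lower in TFE3 KO and DKO than in WT. In TFE3 KO RRAGC read 111, 106 and 120.5 against 176 and 187 in WT, a change of -0.69 ± 0.09 (limma, adjusted p = 3.14e-07). RRAGD read 93.1, 93.7 and 97.4 against 159 and 144 in WT, a change of -0.67 ± 0.09 (limma, adjusted p = 3.14e-07). FNIP2 read 55.1, 73.0 and 60.1 against 91.6 and 98.6 in WT, a change of -0.60 ± 0.11 (limma, adjusted p = 9.75e-05). All 3 sets of libraries were below WT without overlap, and 9.64% of all genes passed. In DKO RRAGC changed by -0.76 ± 0.09 (limma, adjusted p = 3.38e-08) and RRAGD by -0.59 ± 0.09 (limma, adjusted p = 5.37e-06), where 12.1% of all genes passed. FNIP2 was 0.22 lower on the log2 scale with an interval from -0.44 to 0.0007 and did not pass (limma, adjusted p = 0.197). In TFEB KO RRAGD alone of the 6 genes passed, at 195, 199.6 and 198, with a change of 0.38 ± 0.09 (limma, adjusted p = 0.00217) and 18.0% of all genes passing. Without WT Torin replicate 3 this call was lost (0.0825), and without the library labelled TFEB KO Torin replicate 1 it was kept (0.00659). With the identical column counted as WT Torin, RRAGD in TFEB KO was at 0.01 (limma, adjusted p = 0.971), FNIP2 in DKO passed at -0.66 (0.029), RRAGD was at -1.04 in TFE3 KO and -0.96 in DKO, and FNIP2 was at -1.05 in TFE3 KO.

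The single knockouts were also compared with each other. Without drug TFE3 KO was below TFEB KO in 5 of the 6 genes, where 29.9% of all genes passed. The differences were -0.75 ± 0.08 for RRAGC, -0.75 ± 0.08 for RRAGD and -0.72 ± 0.10 for FNIP2, with limma adjusted p-values of 8.7e-10, 3.99e-10 and 8.85e-08. FNIP1 (-0.46, adjusted p = 0.0395) and RRAGA (-0.28, adjusted p = 0.0332) also passed in limma, but each lost the call without any of 4 of the 6 libraries, with adjusted p up to 0.292 for FNIP1 without TFEB KO replicate 1 and up to 0.172 for RRAGA without TFE3 KO replicate 2. FLCN differed by -0.14 ± 0.16.

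Further contrasts between the knockouts were added after the values had been seen. Under Torin, TFE3 KO was below TFEB KO in RRAGD (-1.05 ± 0.08), RRAGC (-0.70 ± 0.08) and FNIP2 (-0.63 ± 0.10), where 35.2% of all genes passed. Without drug DKO was below TFEB KO in RRAGC (-0.67 ± 0.08), RRAGD (-0.59 ± 0.08), FNIP1 (-0.60 ± 0.17) and FNIP2 (-0.33 ± 0.10), where 25.5% of all genes passed. Of these the FNIP1 call was lost without TFEB KO replicate 1 (limma, adjusted p = 0.116) and the FNIP2 call without DKO replicate 2 (0.0688). DKO and TFE3 KO differed without drug in FNIP2 only among the 6 genes, by 0.40 ± 0.10 (limma, adjusted p = 0.00758), where 4.87% of all genes passed. That call was lost without TFE3 KO replicate 2 (0.0528) or 3 (0.0838). For RRAGC the 95% interval of the difference between DKO and TFE3 KO ran from -0.10 to 0.24, and for RRAGD from -0.002 to 0.32.

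Ordered by mean, WT HBSS was first of the 9 groups in every gene but RRAGA, where it was last. FLCN ran from 18.9 to 35.0 over the libraries outside HBSS, and 1 of its 8 pairs of neighbouring groups did not overlap, HBSS and the next. FNIP1 was alike, with 1 of 8 pairs apart. RRAGC had 4 of 8 pairs apart: HBSS (325 ± 6.40, SD, n = 2) was followed by TFEB KO (219.9 ± 15.1, n = 3), then by overlapping WT, TFEB KO Torin and WT Torin groups at 181 to 183, then by DKO and TFE3 KO controls, and last by these clones in Torin, down to 107 ± 9.88 (n = 3) in DKO. RRAGD had 3 pairs apart. HBSS (297 ± 15.6, n = 2) and TFEB KO Torin (197 ± 2.41, n = 3) each stood alone. Among TFEB KO control, WT Torin and untreated WT, with means of 143 to 157, neighbours overlapped. TFEB KO control and untreated WT did not overlap each other. Among the 4 groups of TFE3 KO and DKO, with means of 93.4 to 104, neighbours also overlapped. DKO control and TFE3 KO Torin did not overlap each other. FNIP2 had 3 pairs apart and RRAGA 2. Full separation has an exact permutation p of 0.1 for 3 against 3 libraries and 0.2 for 2 against 3. The share of all genes with groups apart was not counted, so these counts and each lack of overlap above only describe the values. Genes that did not pass were also apart, such as FLCN in TFEB KO and RRAGA in TFE3 KO and DKO, each against WT in Torin.

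**Figure D5:**
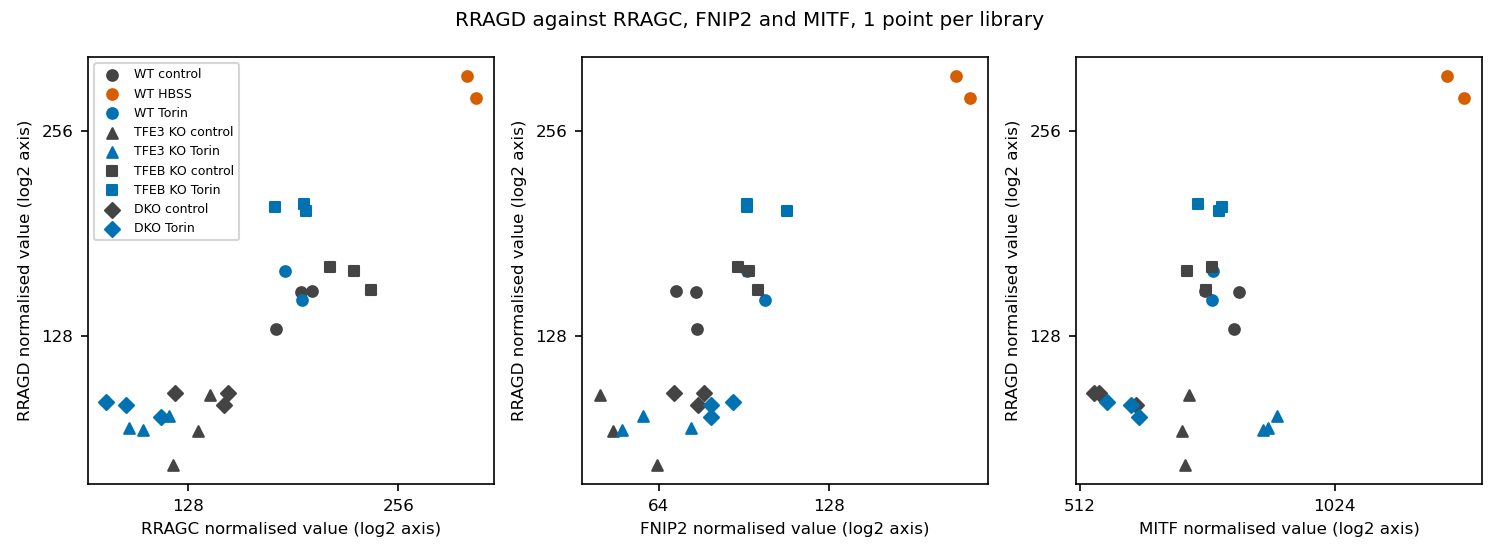
Normalised value of RRAGD (y axis) against RRAGC, FNIP2 and MITF (x axes, all log2 axes), 1 point per library, with colour for treatment and symbol for genotype. RRAGD rises with RRAGC across the 25 libraries, and the TFE3 KO Torin libraries lie at 843 to 875 in MITF with RRAGD at 93.1 to 97.4.

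Across the 25 libraries, which share group, clone and treatment and so are not independent, RRAGC and RRAGD had a Pearson correlation of 0.904 on the log2 scale, and 0.832 in the 23 libraries outside HBSS. FNIP2 and RRAGD were at 0.854 and 0.721. Those of FLCN with RRAGC (0.614) and with FNIP2 (0.674) fell to 0.204 and 0.0193 without the HBSS libraries. MITF correlated with FNIP2 at 0.660, and at -0.0767 without HBSS. With FNIP1 it was at 0.756 and 0.471, with RRAGC at 0.648 and 0.264, and with RRAGD at 0.663 and 0.265. With FLCN it was at 0.639 and -0.071, and with RRAGA at -0.527 and -0.065. In TFE3 KO cells MITF rose with Torin by 0.33 ± 0.06 (limma, adjusted p = 1.27e-05). RRAGD changed by 0.03 ± 0.08 there, and RRAGC by -0.22, a call in limma that edgeR (adjusted p = 0.0647) and DESeq2 (0.0557) did not make. A link between these changes was not tested.

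The genes whose pattern was most like each of the 6 were sought among 9856 genes with a mean of at least 5. They were CDV3 (r = 0.944) and CLIC4 (0.942) for RRAGC, LAMP2 (0.939), a lysosomal membrane protein gene, and MAFF (0.939) for RRAGD, and CHAC1 (0.929), a glutathione-degrading enzyme gene of the stress response, and SPIRE1 (0.926) for FNIP2. SETBP1 (0.910) and TANGO2 (0.904) were most like FNIP1, DYNLL1 (0.888) and TTC1 (0.874) most like RRAGA, and HUS1 (0.871) and KANK1 (0.839) most like FLCN. Without the HBSS libraries CDV3 remained first for RRAGC (0.947), while CHAC1 moved to rank 63 for FNIP2 (0.771). CLIC4 was then at rank 16 for RRAGC, LAMP2 at 19 (0.893) and MAFF at 14 for RRAGD, and SPIRE1 at 34 for FNIP2. SETBP1 was at rank 5 and TANGO2 at 3 for FNIP1, and DYNLL1 at 23 and TTC1 at 34 for RRAGA. For FLCN, KANK1 was at rank 1 (0.628) and HUS1 at 9 (0.567).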

How the data were processed

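RNA 3′ ends were measured with QuantSeq Forward libraries in 27 samples of 501mel cells. Per the study's methods and the submitters' processing notes, the authors trimmed reads with cutadapt 2.10, mapped them to hg38 with STAR 2.7.8a and normalised with edgeR. The counter, its strand setting, the scaling method and the gene filter are not given in the sources used here. The deposited signal is a normalised read count per gene symbol, on a CPM scale divided by a scaling factor per library. In every column 100% of the values were whole multiples of the value of 1 read (tolerance 0.02), so the reads were recovered.

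The filter kept 13052 genes that reached a value of 1 in 3 or more libraries (471 did not), and these were transformed as log2(value + 1), which draws the fold changes of low genes towards 0. limma 3.58.1 in R 4.3.3 fitted a mean per group to 25 libraries, after the column found under 2 labels was dropped from both. The planned fit had all 27 libraries. The study's own test was edgeR's quasi-likelihood test on counts. It was run here on the recovered reads as an alternative (edgeR 4.0.16, 6138 genes called in HBSS against 6299 with limma), beside DESeq2 1.42.0 (5956 genes). All tests were 2-sided, with Benjamini-Hochberg adjustment over all genes tested in each comparison, and a gene passed at an adjusted p under 0.05. The fits were tested on simulated data.

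The members, the pathway list of 35 genes and the comparisons were chosen with earlier results of these data known. By rule the genes named are the 6 members, TFEB, TFE3, MITF, RRAGB, SESN2, up to 6 pathway genes that passed with a change of at least 2-fold, and the 2 genes most correlated with each member. Other pathway genes, the markers named and MPRIP were named after their values were seen. The fit was repeated with a lower pseudocount (0.1), without the filter or with a stricter one (value of 5), with median-of-ratios scaling, with both count tests, on only the libraries compared, with a replicate block, with each library left out, and with 3 placements of the identical column. Depth was 4147050 to 6526392 reads, and detection limits cover counting error only. Reference annotation was GENCODE 44 and RefSeq promoters of GRCh38.p14.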

Additional observations from a re-analysis of the deposited data

Results flagged for a closer look

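The column found under 2 labels, WT HBSS replicate 3 and WT Torin replicate 1, was in no comparison. It held 69.5 for FLCN, 55.9 for FNIP1, 241 for FNIP2, 351 for RRAGC and 326 for RRAGD. All 5 values were above every untreated WT library and also above the remaining HBSS and WT Torin libraries. RRAGA lay at 63.1, between the HBSS and the untreated libraries. TFEB lay at 23.9 in it, against 30.4 and 28.0 in the remaining HBSS libraries and 5.63 and 4.27 in those of WT Torin. MITF lay at 1500, against 1392 and 1454 in HBSS and 735 and 732 in WT Torin. Which label holds was not tested.

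The Torin response of RRAGD differed between TFEB KO and DKO, by 0.39 on the log2 scale, in a test of the difference itself (limma, adjusted p = 0.0343). The contrast was chosen after the values had been seen, and most ways of leaving out 1 library ended the call.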

How the results depend on the processing

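Of 1386 values recomputed under other settings, 1328 kept their side of the threshold, 50 lost their call and 8 gained one. Of values with a call in either fit, 0 reversed direction. Changes of direction in values without a call in either fit were not counted. Of 876 recomputed with 1 library left out, 46 lost and 6 gained a call. With the identical column counted as WT HBSS, no call of the 6 genes changed in any comparison. With the identical column counted as WT Torin or under both labels, the number of the 6 genes that passed moved for Torin in TFE3 KO from 2 to 0 and 0, in TFEB KO from 3 to 1 and 1, and in DKO from 3 to 0 and 1. Against WT without drug it moved from 3 to 1 and 1 in TFE3 KO, from 2 to 0 and 0 in TFEB KO, and from 2 to 0 and 0 in DKO. It moved from 5 to 3 and 3 between TFE3 KO and TFEB KO, from 1 to 0 and 0 for TFEB KO against WT in Torin, from 1 to 0 and 0 for DKO against TFE3 KO, from 4 to 2 and 2 for DKO against TFEB KO, and from 1 to 0 and 0 for the response of TFEB KO minus DKO. It fell from 6 to 4 and 4 for HBSS against Torin, and rose from 2 to 3 and 3 both for Torin in WT, with RRAGD, and for DKO against WT in Torin, with FNIP2. In comparisons without the WT HBSS and WT Torin groups the log2 fold changes stayed the same and only the adjusted p moved. For RRAGC in TFE3 KO against WT without drug the change stayed at -0.48. Its limma adjusted p went from 3.08e-05 to 0.0779 with the column as WT Torin. The fit has 1 estimate of spread per gene, shared by all groups. The column held 351 for RRAGC, where the other WT Torin libraries held 176 and 187. How far this accounts for the move was not tested. edgeR and DESeq2 gave 1 in place of 2 for Torin in TFE3 KO, DESeq2 gave 1 in place of 0 for the response of TFEB KO minus TFE3 KO, and a fit of only the libraries compared gave 1 in place of 2 for TFEB KO against WT. Both count tests gave 2 in place of 3 for Torin in DKO, as did median-of-ratios scaling and the fit of only the libraries compared, of which the latter lost FNIP1 (adjusted p = 0.0633). edgeR gave 3 in place of 2 for TFEB KO against WT and 5 in place of 4 for DKO against TFEB KO.

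Leaving out 1 library gave 0 to 2 for Torin in WT, 1 to 3 in TFE3 KO, 2 to 3 in TFEB KO and 1 to 3 in DKO. It gave 2 to 3 for TFE3 KO against WT, 0 to 3 for TFEB KO against WT, 3 to 5 between these knockouts, 0 to 1 for TFEB KO against WT in Torin, 0 to 1 for DKO against TFE3 KO, 3 to 4 for DKO against TFEB KO, 0 to 1 for the response of TFEB KO minus TFE3 KO and 0 to 1 for that of TFEB KO minus DKO. In groups of 2, the remaining library is assumed to vary like the other groups. Equal replicate numbers did not pair the libraries (r from -0.259 to 0.208 over 32 pairs, of which 3 exceeded 0.1). A fit with the number as a block changed 1 call, FNIP1 in TFEB KO against WT (0.48, limma adjusted p = 0.0447), and no other. At 69 to 201 reads per library FNIP1 has the least depth of the 6 genes.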
